A study of Mus musculus with 6 samples.

Results

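The genes described here are 38 splicing regulators of the nuclear speckle, found among 44679 genes by the Ensembl identifier that carries each symbol in a GRCm38 annotation. They were chosen by name with earlier results of the same data in view. All 38 were found and all 38 passed the filter on low counts. They comprise 10 SR proteins, 2 TRA2 proteins, 3 LUC7-like factors of the U1 particle, 6 RNA-binding regulators, 7 kinases and cyclins, 8 large speckle or matrix proteins and 2 helicases. RNA came from pellets of tumour cells of B16F10, a mouse melanoma line that grows in the skin. Mice had been left untreated (3 tumours) or given vorinostat, an inhibitor of histone deacetylases, in vivo (3 tumours). The sources used here give no dose, schedule, strain or age of the mice. They do not say that each tumour came from its own mouse, so p-values measure the spread between these 6 samples. In bulk samples such as these, fewer cells of a type and less RNA per cell cannot be told apart.

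Nuclear speckles are bodies in the nucleus where splicing factors gather. SR proteins bind exons through an RNA recognition motif, recruit the U1 and U2 particles to splice sites and carry a tail of alternating arginine and serine, the RS domain. CLK kinases phosphorylate that tail and release the proteins from speckles. A second kind of speckle protein carries a long stretch in which arginine or lysine alternates with glutamate. Many of these genes hold introns or poison exons through which the protein limits its own messenger RNA.

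Both kinds of stretch can be read in the coding sequence, and 1 gene can hold both. The most Arg- and Glu-rich 30 codons are printed for the 6 genes whose scaled read count varied most between tumours and for 2 RS-type genes that varied less. Arg and Glu codons are in capitals. The windows were taken from protein-coding transcripts of GENCODE M21 on GRCm38.
Luc7l3 (chr11:94297015-94297104, minus strand, exon 8): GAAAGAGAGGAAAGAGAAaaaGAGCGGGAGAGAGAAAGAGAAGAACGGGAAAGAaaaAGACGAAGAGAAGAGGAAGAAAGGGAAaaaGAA
Rbm25 (chr12:83668108-83668197, plus strand, exon 11): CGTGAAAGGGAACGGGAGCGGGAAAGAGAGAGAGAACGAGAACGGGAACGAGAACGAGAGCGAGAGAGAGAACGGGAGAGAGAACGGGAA
Srek1 (chr13:103752597-103752686, minus strand, exon 7): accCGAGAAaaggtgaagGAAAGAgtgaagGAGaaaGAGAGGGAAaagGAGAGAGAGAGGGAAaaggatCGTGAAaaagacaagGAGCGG
Arglu1 (chr8:8683853-8683942, minus strand, exon 2): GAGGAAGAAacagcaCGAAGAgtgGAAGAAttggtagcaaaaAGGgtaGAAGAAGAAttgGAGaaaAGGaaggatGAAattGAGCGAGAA
Cdk11b (chr4:155639797-155639886, plus strand, exon 8): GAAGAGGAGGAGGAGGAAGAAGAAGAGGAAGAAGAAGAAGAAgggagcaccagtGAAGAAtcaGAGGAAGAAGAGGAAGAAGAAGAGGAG
Safb2 (chr17:56566592-56566943, minus strand, exons 14 and 15): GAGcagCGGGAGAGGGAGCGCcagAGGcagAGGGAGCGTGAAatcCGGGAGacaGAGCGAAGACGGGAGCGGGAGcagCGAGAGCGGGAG
Srsf1 (chr11:88049466-88049555, plus strand, exon 4): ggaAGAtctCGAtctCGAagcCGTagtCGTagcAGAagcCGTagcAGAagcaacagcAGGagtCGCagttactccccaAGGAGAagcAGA
Tra2a (chr6:49250908-49250997, minus strand, exon 3): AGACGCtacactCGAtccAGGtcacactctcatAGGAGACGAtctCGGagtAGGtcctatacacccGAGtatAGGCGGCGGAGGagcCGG
All 30 codons of the Rbm25 window encode Arg or Glu, 15 of each. Luc7l3 has 16 Glu and 11 Arg codons, whereas Cdk11b has 25 Glu codons and 0 for Arg. Srek1 has 8 Lys codons between 10 Glu and 7 Arg codons. The Srsf1 window has 0 Glu codons and alternates 13 Arg with 13 Ser codons.

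The 6 libraries held 11.3 to 28.9 M assigned reads. The mitochondrial ribosomal RNAs took 55.9% of these in untreated tumour 3, 25.3% in untreated tumour 1 and 13.3 to 23.5% in the other 4. Counts are therefore given as CPM, reads scaled to a common library size by TMM factors, which ran from 0.364 in untreated tumour 3 to 1.65 in vorinostat tumour 2. The 38 genes together received 59030, 32101 and 29691 reads in the 3 untreated libraries, in the order of their numbers, and 44326, 40228 and 20519 in the 3 treated ones. Values below follow that order. Markers of melanocytes were present in every library, at sums of 5890 to 7550 CPM in untreated and 5860 to 8140 CPM in treated tumours, with none of the 8 genes at 0.

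Between treated and untreated tumours 0 of the 38 genes passed the test in edgeR (adjusted p over 14776 genes, threshold 0.05), and 0.00% of all genes tested did. The smallest adjusted p among the 38 was 0.743. DESeq2 and limma-voom also called 0 of them. At an unadjusted p under 0.05, 8 were lower with vorinostat (2.92% of all genes tested) and 0 higher (3.36%). The log2 fold changes ran from -1.96 to 0.24 with a median of -0.10, against 0.03 over all genes tested. They were below 0 for 29 genes, but for only 10 with library size alone as the scaling and for 12 on either log2(TPM) scale. With library size alone the medians were 0.19 for the 38 genes and 0.29 for all genes tested, so the sign of the median rests on the scaling.

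The untreated tumours themselves differed widely. Untreated tumours 1 and 3 both stood above the other 4 libraries for 15 of the 38 genes, against 12.7% of all genes tested. Both stood below for 0 genes, against 14.3%. These shares depend on level, and all 38 genes had a mean of 10 CPM or more. Among other genes at that level, 20.5% were above and 4.48% below, counting those under 30 codons in the Arg and Glu window described below. This pair of tumours was singled out from earlier results of these data and is no group of the study, so the split is described without a test. For 6 genes the gap in CPM was wide, 1.84- to 2.46-fold between the lower of the pair and the highest of the other 4 libraries. For the next gene it was 1.33-fold, and for the other 9 genes above it ran from 1.03-fold up to that value.

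**Figure D1:**
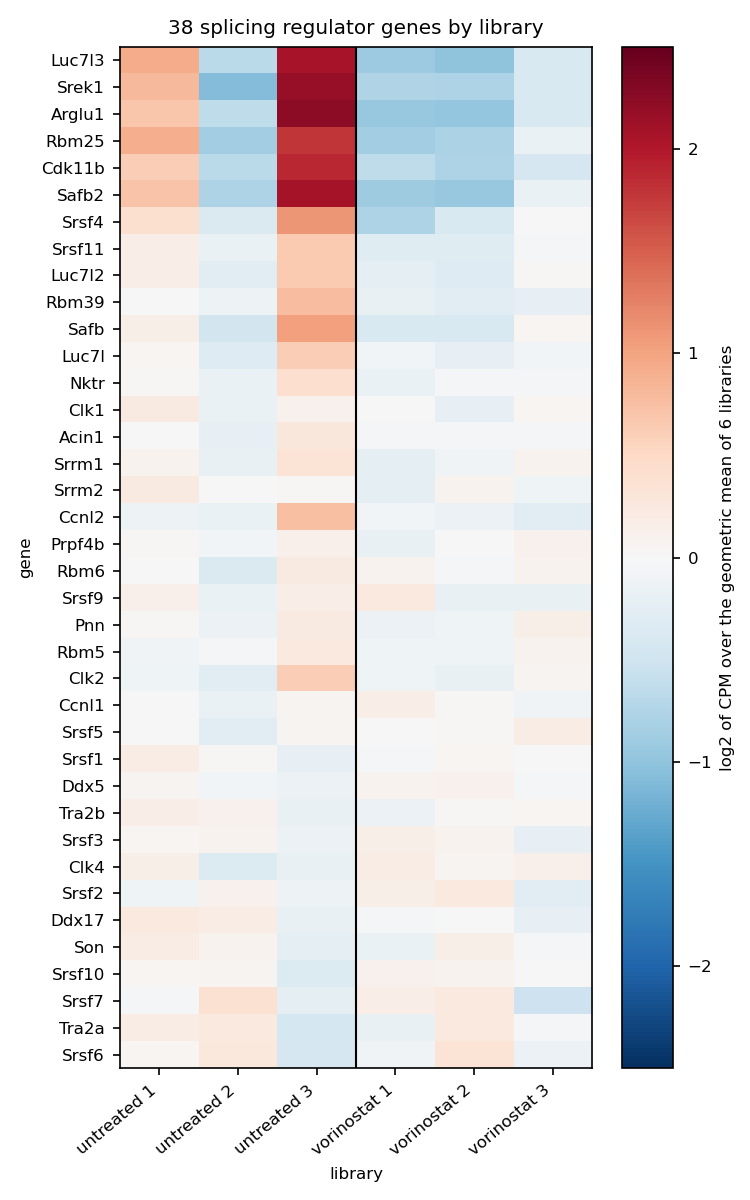
Heat map of 38 genes (rows) in 6 libraries (columns), coloured by the log2 ratio of CPM to the geometric mean of the gene over 6 libraries, with genes ordered by the gap between untreated tumours 1 and 3 and the other 4. The 6 rows at the top are dark red in untreated 3, red in untreated 1 and blue or near white in the other 4 columns, while the SR and TRA2 rows at the bottom are mostly pale.

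Luc7l3, a LUC7-like protein of the U1 particle, measured 71.2, 23.4 and 157 CPM in untreated tumours, against 19.9, 18.6 and 29 CPM under vorinostat. Untreated tumour 2 lay inside the range of the treated tumours, so the treatment groups overlapped. Its means were 83.8 ± 67.5 and 22.5 ± 5.65 CPM (SD, n = 3 each). On the log2 scale the change was -1.90 ± 0.50 (SE; adjusted p = 0.743 in edgeR). The other LUC7-like genes had smaller gaps of the same direction. Luc7l2 measured 78.5, 57.4 and 111 CPM in untreated and 59.5, 55.9 and 71.7 CPM in treated tumours. Luc7l measured 13.6, 10.5 and 20.1 CPM against 12.6, 11.5 and 12.6 CPM.

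Among the RNA-binding regulators, Arglu1 had the lowest log2 fold change of the 38 genes. Arglu1 encodes an arginine- and glutamate-rich splicing coactivator. It measured 29.8, 11.8 and 86.4 CPM in untreated tumours 1 to 3 and 9.46, 9.42 and 14.1 CPM in treated ones (log2 fold change -1.96 ± 0.54 SE; adjusted p = 0.743 in edgeR). Rbm25, a speckle protein that associates with the U1 particle, measured 174, 50.3 and 320 CPM in untreated and 50.2, 53.1 and 82.8 CPM in treated tumours. Srek1, which binds SR proteins and modulates their activity, measured 35.4, 9.53 and 91 CPM against 12, 11.9 and 15.6 CPM. Here untreated tumour 2 was below all 3 treated tumours. Rbm39, a U2AF-related factor, was the only one of the 38 whose treatment groups did not overlap, at 74.3, 68.1 and 127 CPM in untreated and 65.3, 61.6 and 64.2 CPM in treated tumours. Across all genes tested 5.53% were lower without overlap and 6.53% higher, and 0 of the 38 were higher. Its log2 fold change was -0.49 ± 0.22 (SE; adjusted p = 0.743 in edgeR). Rbm5 and Rbm6, related regulators of alternative exons, had log2 fold changes of -0.08 and 0.08.

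Cdk11b, a cyclin-dependent kinase that binds L-type cyclins and acts in splicing, measured 38.7, 15.9 and 93.7 CPM in untreated and 16.3, 14.8 and 18.9 CPM in treated ones (log2 fold change -1.56 ± 0.47 SE; adjusted p = 0.743 in edgeR). Its partner cyclins did not share this pattern. Ccnl1 measured 21.6, 19.3 and 22.7 CPM against 24.2, 22.2 and 20.4 CPM. Ccnl2 was high in untreated tumour 3 alone, at 11.8, 11.5 and 21.7 CPM in untreated and 12.3, 11.7 and 10.7 CPM in treated tumours. Of the CLK kinases, which phosphorylate RS domains, Clk1 measured 19.9 to 26.9 CPM over the 6 libraries. Clk2, like Ccnl2, was highest in untreated tumour 3, at 15.8, 14.1 and 26.2 CPM against 15.7, 14.9 and 17.8 CPM. Clk4 had the highest log2 fold change of the 38 genes, 0.24 ± 0.16 (SE; adjusted p = 0.767 in edgeR), with values of 21.6, 15.4 and 17.1 CPM in untreated and 22.1, 20.4 and 21.3 CPM in treated tumours. Prpf4b, a kinase of the tri-snRNP, ranged from 24.1 to 29.7 CPM.

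Safb2 measured 82.7, 29.5 and 215 CPM in untreated tumours 1 to 3 and 27.3, 26.4 and 44.9 CPM in treated tumours. It encodes a scaffold attachment factor that binds chromatin and RNA. The log2 fold change was -1.73 ± 0.53 (SE; adjusted p = 0.743 in edgeR), with untreated tumour 2 again between the treated tumours. Its neighbour and close relative Safb showed a smaller spread in CPM, at 55.8, 36.6 and 102 CPM against 38.4, 38.5 and 51.6 CPM. Per unit of length it did not, at 47.6, 15.8 and 54.2 TPM in untreated and 10.5, 14.4 and 15.1 TPM in treated tumours. With effective length as an offset the log2 fold change was -2.48 for Safb and -2.18 for Safb2 (adjusted p = 0.75 in edgeR for each). Reads of these paralogs can be split between them in quantification, so the share of each is uncertain. The annotation also places genes on the opposite strand of several of the 38, among them Rbm25 (Gm29361), Cdk11b (Gm10563), Srsf4 (Gm12992) and Srsf1 (Gm11508). Some overlap a gene on the same strand, among them Srsf4 (A930004J17Rik) and Arglu1 (Mir7654). Whether strand was used in quantification is not stated. The large scaffold proteins of the speckle, Son and Srrm2, were even across libraries: Son measured 83.4 to 113 CPM and Srrm2 134 to 186 CPM. Of the other matrix and speckle genes, Acin1 ranged over 48 to 66.8 CPM, Pnn over 32.9 to 42.9 CPM, Srrm1 over 43.4 to 65.4 CPM and Nktr over 42.6 to 64.5 CPM.

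**Figure D2:**
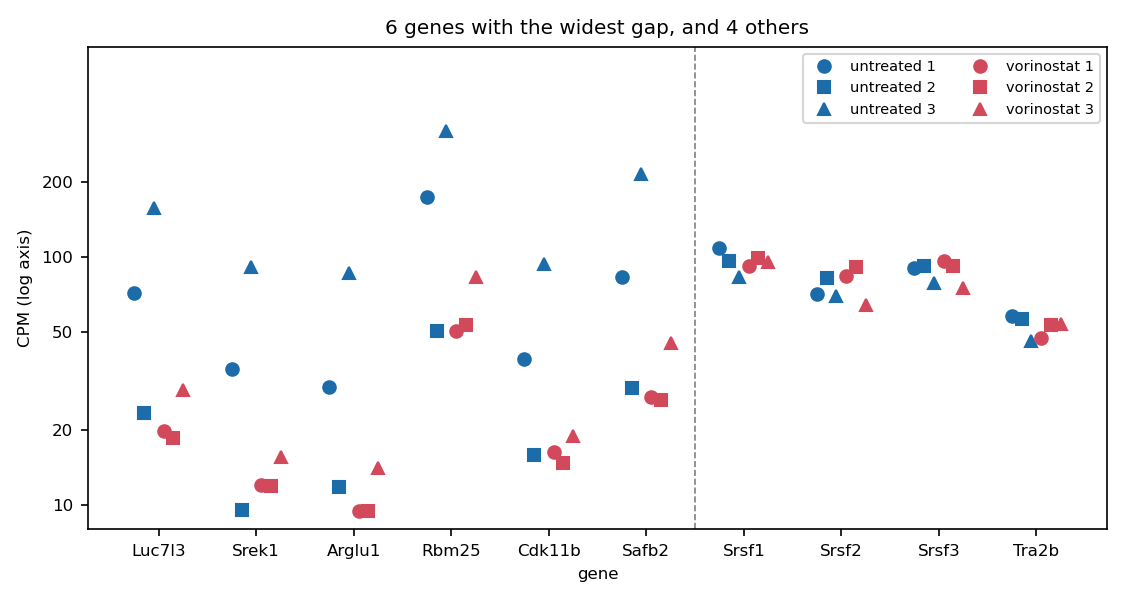
CPM on a log axis for 10 genes, with 1 point per library (blue untreated, red vorinostat; circle, square and triangle are tumours 1, 2 and 3). Left of the dashed line the blue circle and triangle stand above the other 4 points for each of the 6 genes; right of it, for Srsf1, Srsf2, Srsf3 and Tra2b, the 6 points lie close together and the colours mix.

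For 8 of the 10 SR proteins proper the pair was neither above nor below the other 4 libraries, and the median log2 fold change of the 10 was 0.00. Srsf1, the founding SR protein, measured 108, 96.6 and 82.7 CPM in untreated and 91.7, 98.5 and 95.7 CPM in treated tumours. Its log2 fold change was -0.01 ± 0.16 (SE; adjusted p = 0.994 in edgeR), and untreated tumour 3 was here the lowest library. Srsf2 measured 70.7, 82.1 and 69.5 CPM against 83.9, 90.7 and 63.8 CPM. Srsf5 measured 48.5, 40.4 and 51 CPM against 48.4, 49.2 and 54.9 CPM. In these genes treated and untreated libraries were interleaved. Srsf10, which represses splicing when dephosphorylated, measured 39.3, 40.1 and 30.1 CPM against 41, 40.4 and 38.3 CPM. Wider ranges without that order were those of Srsf6, 38.5 to 65.5 CPM, and Srsf7, 19.4 to 36.1 CPM. In Srsf4 and Srsf11 the pair was above. Srsf4, one of the long-tailed SR proteins, measured 25.6, 15.1 and 41.7 CPM in untreated and 11.3, 14.9 and 19.3 CPM in treated tumours (log2 fold change -0.86 ± 0.31 SE; adjusted p = 0.743 in edgeR). Srsf11 measured 40, 31.9 and 56.3 CPM against 29, 28.9 and 35.3 CPM (log2 fold change -0.46 ± 0.20 SE; adjusted p = 0.743 in edgeR). TRA2 proteins, which activate exons through purine-rich enhancers, had log2 fold changes of -0.01 for Tra2a and -0.06 for Tra2b. The helicases Ddx5 and Ddx17 had 0.09 and -0.17.

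Because scaling differed so much between libraries, the genes were also set against Srsf1 within each library, a ratio of read counts in which any scaling cancels. Luc7l3 gave 0.657, 0.242 and 1.90 reads per Srsf1 read in untreated tumours 1, 2 and 3 and 0.217, 0.189 and 0.303 in treated tumours. Rbm25 gave 1.60, 0.521 and 3.87 against 0.547, 0.539 and 0.865. For Safb2 the ratios were 0.764, 0.305 and 2.60 against 0.298, 0.268 and 0.469. The balance between these genes and Srsf1 thus differed between untreated tumours 1 and 3 and the other 4 without regard to library size. By contrast Srsf3 stayed between 0.784 and 1.05 reads per Srsf1 read and Son between 0.959 and 1.11. Srsf1 itself was lowest in untreated tumour 3, however, and most of the other genes had their highest ratio there. Rbm39 gave 1.53 reads per Srsf1 read in untreated tumour 3 and 0.625 to 0.712 in the other libraries. Nktr gave 0.78 there and 0.441 to 0.482 in the others. A high ratio in untreated tumour 3 was thus not particular to the 6 genes. The 6 genes stood above in the pair under every scaling tried. With library size alone they were the only 6 of the 38 above, where 0.277% of all genes tested were above.

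Without untreated tumour 2, edgeR called 7 of the 38 genes lower with vorinostat, among 121 called of 16438 genes tested (0.736%). They were Luc7l3, Rbm25, Srek1, Arglu1, Cdk11b, Safb2 and Srsf4. Leaving that tumour out sets the pair singled out from earlier results against the treated tumours, so these calls and p-values are no independent test. Luc7l3 then had a log2 fold change of -2.37 (edgeR adjusted p = 0.000533; over all 17 alternatives its adjusted p ran from 7.4e-13 to 1.0). The same 7 were called by edgeR when genes of low count were kept, among 156 called of 33106 genes (0.471%). Untreated tumour 2 was part of that fit, and the log2 fold change of Luc7l3 moved little, from -1.90 to -1.99. DESeq2, also run on 33106 genes, called 0 of the 38 (Luc7l3 adjusted p = 0.523 in DESeq2), so these calls depended on the method. Under the other 15 alternatives 0 of the 38 were called. Without untreated tumour 3 the log2 fold changes of the 6 genes shrank to -1.13 for Luc7l3, -0.99 for Arglu1, -0.91 for Rbm25, -0.83 for Srek1 and Safb2 and -0.76 for Cdk11b.

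Several library measures moved with untreated tumours 1 and 3, those of marker genes on the CPM scale. Besides the share of mitochondrial ribosomal RNA given above, leukocyte markers (8 of 8 found, none at 0) summed to 61.4 and 107 CPM in the pair, 29.9 CPM in untreated tumour 2 and 51.4 to 52.2 CPM in treated tumours. Fibroblast markers (5 of 5 found, none at 0) summed to 20.7 and 30.2 CPM in the pair and 6.97 to 14.2 CPM in the other 4. Both sums depend on the scaling, since untreated tumour 3 had 28.9 M assigned reads but an effective library of 10.5 M. Scaled to assigned reads alone, neither would place untreated tumour 3 above the other 4. Markers of other cells did not follow the pair. Endothelial genes summed to 2.52, 2.8 and 10.2 CPM in untreated and 3.34, 4.01 and 9.16 CPM in treated tumours, and skeletal muscle and erythroid genes were likewise highest in untreated tumour 3 and vorinostat tumour 3. A number after the letter S in the titles of unknown meaning is 62 and 63 for the pair and 57 to 60 for the others. A number after the letter G cuts across the pair: it is 1 for untreated tumours 1 and 2, 2 for untreated tumour 3, 3 for vorinostat tumours 1 and 2 and 4 for vorinostat tumour 3. All 6 genes were highest in tumour 3 within both treatment groups. The part of these measures in the result was not tested. With mitochondrial genes and ribosomal RNA left out before scaling, the 6 genes again stood above, as under every scaling. That step changed the values little (log2 fold change of Luc7l3 -1.94 against -1.90) and does not test the share of this RNA. Reads in 1658 chemoreceptor genes, silent in most tissues, summed to 38.4, 41.6 and 78.3 CPM in untreated and 61.4, 60.1 and 228 CPM in treated tumours, which does not separate the pair. Scaled to assigned reads alone (RPM) they were lowest in the pair, at 41.6, 65.8 and 28.5 RPM against 71, 99.2 and 188 RPM.

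Coding stretches were then compared between the genes above in the pair and the rest. For each gene the window of 60 codons with the most Arg and Glu codons was taken, a measure chosen after the values were seen. It held 14 to 49 such codons across the 38 genes. Of 13 genes with 30 or more, 11 were above in untreated tumours 1 and 3 (84.6%), the exceptions being Srrm2 and Prpf4b. All 8 genes with 35 or more were above, namely Rbm25 with 49, Acin1 with 44, Luc7l3 with 43, Safb with 40, Cdk11b with 39, Luc7l and Safb2 with 37 and Luc7l2 with 36. Of 25 genes under 30, 4 were above (16%): Srek1 with 29, Srsf4 and Nktr with 25 and Clk1 with 14. Genes rich in Arg and Ser instead, with 40 or more of 60 codons but fewer than 30 for Arg and Glu, numbered 15, and 3 of them were above. With 40 or more Arg and Ser codons and any number for Arg and Glu there were 21 genes, of which 7 were above. Across the 38 genes Spearman's rho between the codon count and the log2 gap was 0.60 for Arg and Glu and -0.15 for Arg and Ser. These genes share libraries and in part ancestry (Luc7l, Luc7l2 and Luc7l3; Safb and Safb2), so the rho is a description.

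**Figure D3:**
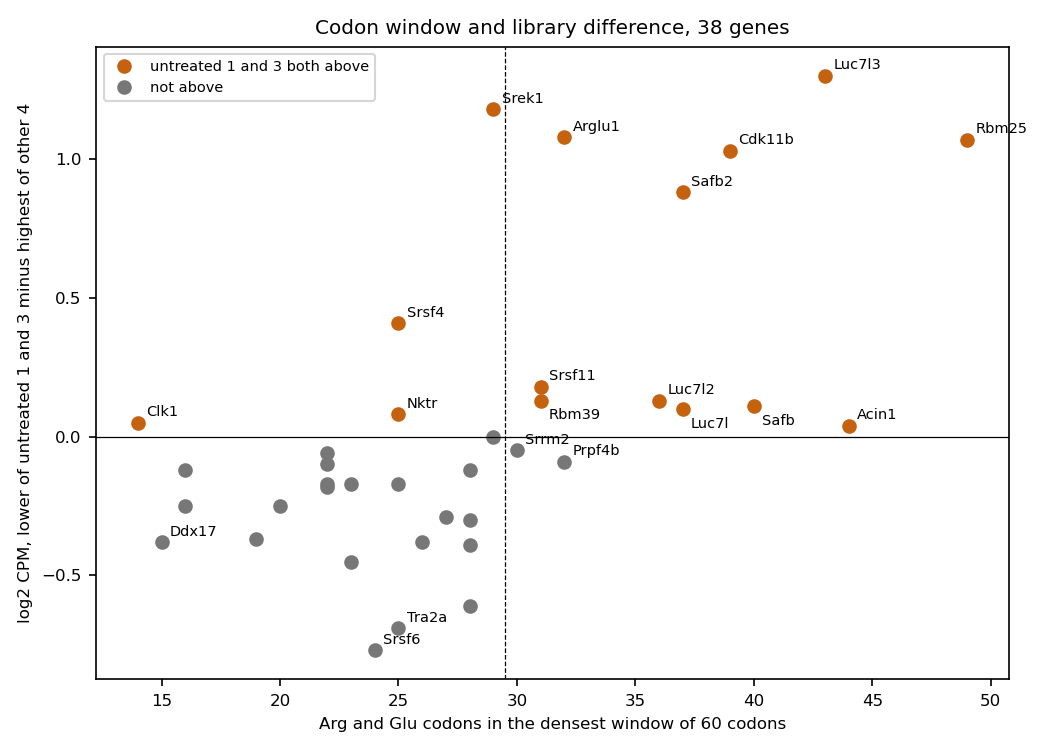
Each point is 1 of 38 genes; the horizontal axis is the number of Arg and Glu codons in the densest window of 60 codons, and the vertical axis is the log2 CPM of the lower of untreated 1 and 3 minus the highest of the other 4 libraries. Right of the dashed line just below 30 codons, 11 of 13 points lie above 0; left of it, 4 of 25 do.

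The same order appeared among genes outside the 38. Of 152 other genes with 30 or more Arg and Glu codons in the window, 52 were above in untreated tumours 1 and 3 (34.2%), against 1695 of 13133 with fewer (12.9%). With 35 or more codons it was 22 of 50 (44%). The share below did not rise in this way, at 11.8% for 30 or more codons and 13.0% for fewer. Among genes with a mean of 10 CPM or more the shares above were 48.5% for 30 or more codons and 20.5% for fewer. The shares below were then 2.06% and 4.48%. All 38 genes reach that mean, and of those with fewer than 30 codons 16% were above. The difference depends on scaling: with library size alone 0% of the dense genes and 0.145% of the others were above, and on the TPM scale 2.63% and 0.327%.

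**Figure D4:**
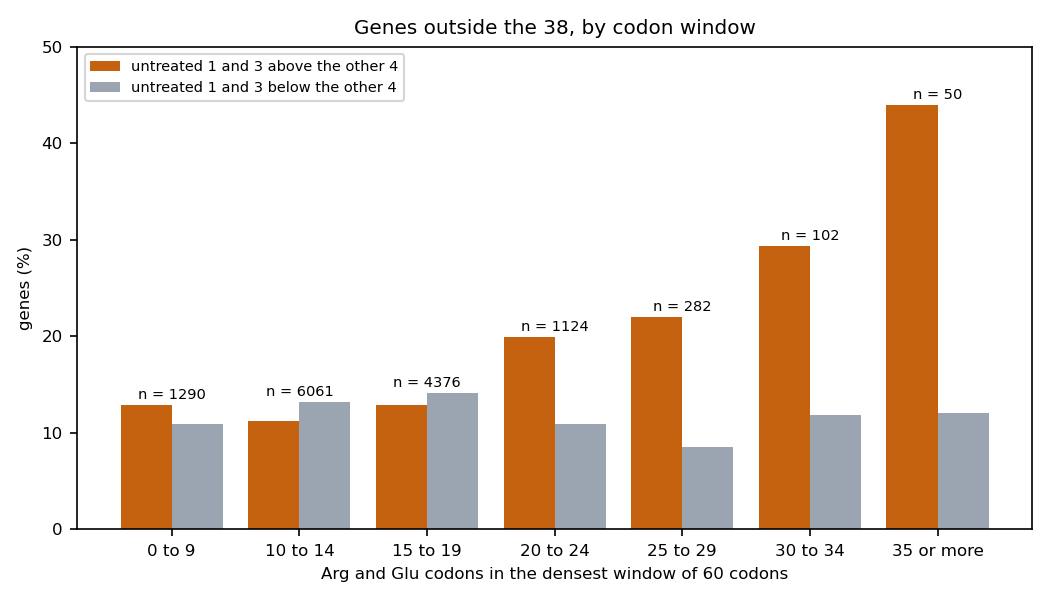
Bars give the percentage of genes outside the 38 for which untreated tumours 1 and 3 both stood above (orange) or both below (grey) the other 4 libraries, by the number of Arg and Glu codons in the densest window of 60 codons; n is the number of genes. Orange bars rise from 11.2% at 10 to 14 codons to 44% at 35 or more, while grey bars lie between 8.51% and 14.1%.

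Transcript usage was read from the deposited gene length, which in Salmon's gene output is the mean length of a gene's transcripts weighted by abundance, so that a shift to shorter transcripts lowers it. It varied for 31 of the 38 genes. For 7 (Arglu1, Srek1, Srsf7, Tra2a, Pnn, Ddx17 and Prpf4b) it was constant, so it says nothing on Arglu1 and Srek1. Between treated and untreated tumours 0 of the 31 genes passed the limma test on log2 length (adjusted p over 7125 genes; smallest 0.801), and 0.00% of all genes tested did. At an unadjusted p under 0.05 there were 2, Rbm6 and Clk2 (4.63% of all genes tested). Length was shorter in untreated tumours 1 and 3 than in the other 4 for 6 genes (7.13% of all genes tested) and longer for 0 (7.73%).

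Safb had the widest range of length, 4.27-fold. Its length was 851, 2084 and 645 bases in untreated tumours 1, 2 and 3 and 2502, 2753 and 1962 bases in treated tumours. Untreated tumour 2 again sided with the treated tumours. In GENCODE M21 the gene has 12 transcripts of 342 to 3628 bases, of which 8 are annotated as retaining an intron. Luc7l3 measured 1737, 2204 and 1703 bases against 2213, 2212 and 2239 bases, so the other 4 libraries lay within a narrow band and the pair below it. Rbm25 showed the same arrangement, at 2419, 2904 and 2390 bases against 2929, 2904 and 2777 bases. Safb2 was shorter in the pair by a smaller margin, at 1012, 1234 and 911 bases against 1333, 1054 and 1293 bases. Clk2 and Ddx5 completed the 6. Of 13 genes above in CPM whose length varied, 4 were shorter in the pair, and of 18 others 2 were.

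Other genes with wide ranges followed other patterns. Luc7l was short in untreated tumour 3 alone, at 2094, 2167 and 1212 bases in untreated and 2303, 2279 and 1921 bases in treated tumours. Rbm39 also had its lowest value there, at 1447, 1710 and 1004 bases against 1611, 1605 and 1395 bases. Rbm6 had the smallest p by treatment: 2398, 2336 and 2432 bases in untreated tumours and 3313, 3423 and 2821 bases in treated ones, without overlap. Its log2 difference was 0.41 ± 0.08 (SE, limma adjusted p = 0.801). Clk2, whose product phosphorylates SR proteins, measured 1666, 1859 and 1376 bases against 2096, 2010 and 2178 bases, also without overlap (log2 difference 0.37 ± 0.12, SE, limma adjusted p = 0.932). Nktr, a cyclophilin with a long RS domain, was longest in untreated tumour 2 and vorinostat tumour 2, and its groups overlapped, at 3394, 4560 and 3140 bases against 3767, 4270 and 3322 bases. Acin1, a speckle protein bound to the exon junction complex, measured 2764, 2841 and 2134 bases against 2322, 2262 and 1984 bases, also with overlap. In all, 3 genes were longer in every treated tumour than in any untreated one (Rbm6, Clk2 and Luc7l3), and such genes made up 3.97% of all genes tested. Srsf2 was the 1 gene shorter in this way (6.05%), at 1805, 1722 and 1708 bases against 1659, 1645 and 1462 bases.

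**Figure D5:**
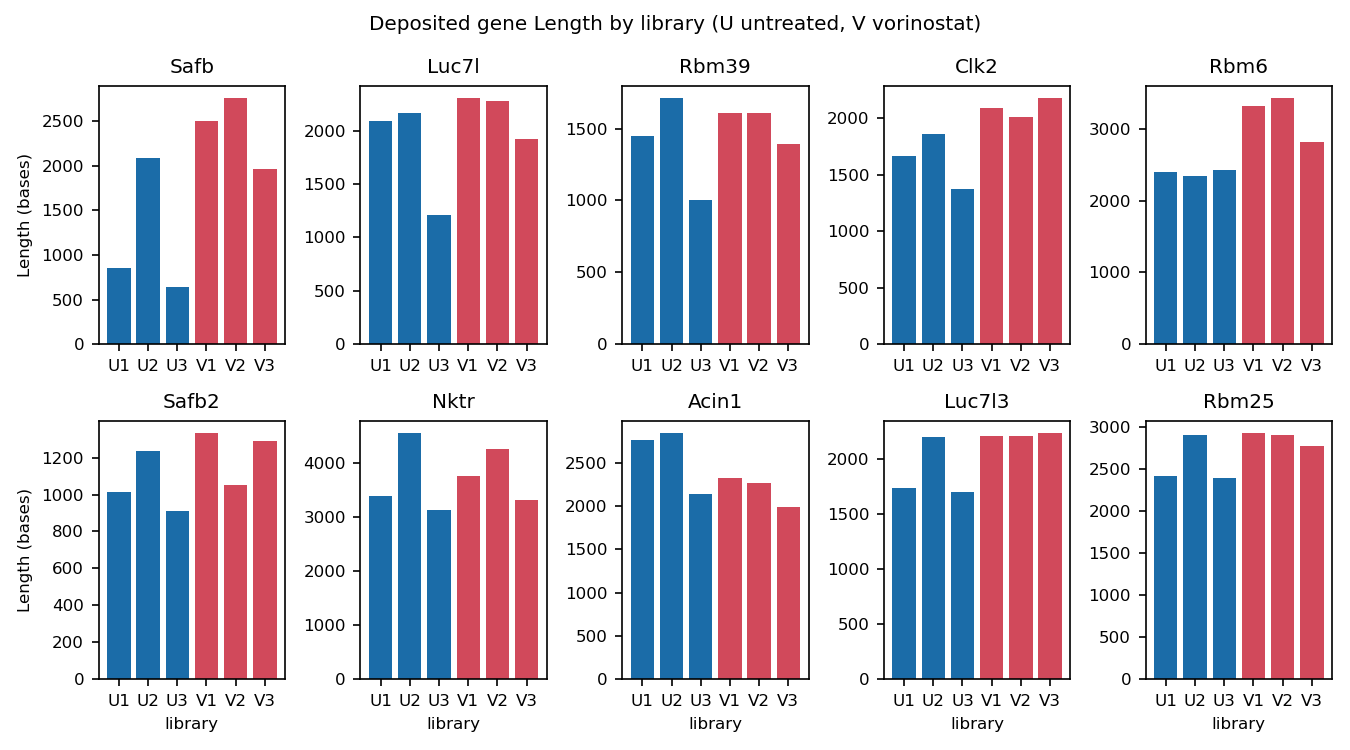
Bars give the deposited length in bases of 10 genes in each library (blue untreated U1 to U3, red vorinostat V1 to V3; axes start at 0 and differ between panels). Safb, Safb2, Clk2, Luc7l3 and Rbm25 are shorter in U1 and U3 than in the other 4, Safb2 by a small margin. Rbm6, Clk2 and by a small margin Luc7l3 are longer in all 3 treated tumours than in any untreated one.

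Per unit of length (TPM), Ddx5, a DEAD-box helicase, had the highest mean of the 38 genes, at 69.2, 79.2 and 26.4 TPM in untreated and 76.5, 100 and 55.7 TPM in treated tumours. Safb2 came next, at 57.9, 23.9 and 71.7 TPM against 15.5, 30.7 and 21.5 TPM. Rbm39 followed, at 33.4, 37.2 and 37.4 TPM against 29.6, 42.7 and 28.2 TPM. Safb2 thus exceeded Ddx5 in untreated tumour 3 and lay below it in the other 5 libraries. Its rank rests on untreated tumours 1 and 3, since in the other 4 libraries it was below Rbm39 and Srsf2. The lowest means were those of Ccnl2 (2.04 to 3.75 TPM), Rbm6 (1.72 to 4.21 TPM) and Srek1 (5.12, 2.02 and 5.53 TPM in untreated and 1.97, 2.99 and 2.10 TPM in treated tumours). The ranges of these 3 genes overlapped, so their order is not fixed.

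Genes that act with these regulators were read from 6 lists, and edgeR called 0 genes in each. The numbers above or below in untreated tumours 1 and 3 are given per list as a description. Over all genes tested 12.7% were above and 14.3% below. Among genes outside the 38 with a mean of 10 CPM or more and under 30 Arg and Glu codons, these shares were 20.5% and 4.48%. Of 8 tested genes for SR kinases, phosphatases and import, the median log2 fold change was -0.03, with 1 above and 1 below in untreated tumours 1 and 3. The gene above was Srpk2, a kinase that primes SR proteins, at 38, 23.9 and 61.3 CPM in untreated and 25.3, 31.3 and 29.2 CPM in treated tumours. Srpk1 measured 53.7, 50.2 and 69.8 CPM against 44.9, 47 and 59 CPM.

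Of 38 core spliceosome genes the median was -0.03, with 2 above and 3 below in the pair. Snrnp70, the U1 protein that SR proteins bind, was above, at 87.9, 49.2 and 134 CPM in untreated and 44.1, 52.5 and 50.9 CPM in treated tumours (log2 fold change -0.88 ± 0.29 SE; adjusted p = 0.743 in edgeR). Its densest window holds 38 Arg and Glu codons. Prpf31, a tri-snRNP protein, was higher in every treated tumour, at 11.9, 11.3 and 11 CPM against 15.1, 16.4 and 16.1 CPM (log2 fold change 0.47 ± 0.14 SE; adjusted p = 0.743 in edgeR).

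Of 26 hnRNP and PTB genes, whose products often oppose SR proteins, the median was 0.01, with 6 above and 0 below. Hnrnpll measured 55.1, 45.2 and 67 CPM against 39.5, 42.9 and 43.9 CPM. Ptbp3, a paralog of the polypyrimidine tract binder, measured 54.9, 43.4 and 59.2 CPM against 46.1, 49.4 and 41.6 CPM. Of 10 genes of nonsense-mediated decay, the pathway that removes transcripts with poison exons, the median was -0.12, with 3 above and 2 below. Upf2 measured 20.7, 15.1 and 35.4 CPM against 12.9, 11.8 and 16.2 CPM. Upf3b, which links the decay factors to the exon junction complex, measured 11.9, 6.24 and 16.7 CPM against 5.86, 8.45 and 9.69 CPM. Both were above in the pair, and their windows hold 31 and 34 Arg and Glu codons. Other genes of these lists were above with few such codons, namely Srpk2 with 21, Hnrnpll with 16 and Ptbp3 with 8. Of 14 exon junction and export genes the median was 0.00, with 0 above and 1 below. Rnps1, an activator of splicing in that complex, measured 28.6, 23.1 and 19 CPM against 28.9, 33.8 and 24.5 CPM. Thoc2, the scaffold of the THO export complex, measured 18.9, 17.9 and 26.3 CPM against 15, 19 and 19.7 CPM. Of 3 nuclear long RNAs 2 were above and 0 below. Neat1, the scaffold of paraspeckles, measured 128, 69.1 and 141 CPM against 107, 79.8 and 113 CPM. Kcnq1ot1, an imprinted antisense RNA that was not above, measured 22.9, 16.3 and 22.5 CPM against 19.8, 18.2 and 32.5 CPM.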

How the data were processed

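Total RNA libraries were stranded and sequenced as read pairs, per the labels' protocols. The submitters' processing notes name FastQC, Trim Galore and Salmon with GRCm38 (versions and annotation not given in the sources used here). Per the file headers, each deposited file holds a length, an effective length, TPM and estimated counts for 44679 genes. The authors' estimated counts were rounded. The deposited TPM values were used for levels between genes and in alternatives, as log2(TPM + 1) and log2(TPM + 0.1).

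The 38 genes, the lists and the split that sets 2 untreated tumours (1 and 3) apart were chosen with earlier results of these data known. Counts were tested with edgeR 4.0.16 (quasi-likelihood, TMM, filterByExpr, R 4.3.3), treatment as the only term, two-sided, Benjamini-Hochberg over 14776 genes. Log2 length was tested with limma 3.58.1 over 7125 genes with a mean count of 50 or more and a varying length. On simulated counts of 14369 genes for this comparison edgeR recovered 9% of 2-fold and 95% of 4-fold changes, with 3 false calls. On simulated lengths of 7125 genes limma recovered 31% of changes of 0.5 and 99% of changes of 1 (log2), with 9 false calls. Both simulations gave every gene the same spread, so these recoveries do not hold for genes that vary more. Arglu1, for example, was 3.88-fold lower with vorinostat yet had an adjusted p of 0.743 in edgeR.

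Values in every library are given for 5 genes by smallest p among those higher and 5 among those lower, the 8 with the widest gap between the pair and the nearest other library, the 8 with the widest range of length, the 3 highest and 3 lowest in mean TPM, and 2 genes of each list by p; a few others were chosen after their values were seen. Codon windows used coding transcripts of GENCODE M21, present for 13323 genes tested. Alternatives were other scalings, filters, DESeq2 1.42.0, limma-voom, TPM, an effective length offset, and each library left out. Libraries held 10.5 to 26.2 M effective reads, so 3 reads correspond to 0.114 to 0.285 CPM.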

Additional observations from a re-analysis of the deposited data

How the results depend on the processing

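The count of genes called was 7 without untreated tumour 2 and 7 with low counts kept, and 0 to 7 over all leave-outs. DESeq2, run on as many genes as the fit with low counts kept, called 0. Without untreated tumour 2 the untreated group is the chosen pair alone, so that count is no independent test. The median log2 fold change was 0.19 with library size alone, 0.32 on log2(TPM + 1) and 0.38 on log2(TPM + 0.1). Over all genes tested it was 0.29, 0.26 and 0.51 on these scales. Genes lower with vorinostat without overlap of the groups numbered 4 with library size alone, 3 on TPM and 1 to 15 with a library left out. Genes higher in this way numbered 2 with upper-quartile scaling, 1 on TPM and 0 to 4 with a library left out. For all genes tested the shares are given under the main settings only, 5.53% lower and 6.53% higher. The counts in these alternatives are therefore not read as a result about the 38 genes. Genes above in untreated tumours 1 and 3 numbered 9 with upper-quartile scaling (8.22% of all genes tested) and 6 with library size alone (0.277%). They numbered 7 on TPM (0.501%) and 15 to 22 with a library left out (14.6 to 24.8%). Genes below numbered 1 with upper-quartile scaling (18.3%), 4 on TPM (34%) and 0 to 7 with a library left out (17.5 to 32.7%). Genes longer in the pair numbered 10 by effective length and 0 to 3 with a library left out, genes shorter 6 to 18. Here too the shares of all genes tested are given under the main settings only. The share of other genes with a dense codon window above in the pair was 23.7% with upper-quartile scaling, 0% with library size alone, 2.63% on TPM, 48.5% at a mean of 10 CPM or more and 34.9 to 46.7% with a library left out. For other genes with fewer such codons it was, in the same order, 8.2%, 0.145%, 0.327%, 20.5% and 14.9 to 25.3%. Log2 fold changes near 0 changed sign with a library left out: Ccnl1 ran from -0.01 (without untreated tumour 2) to 0.13, Srsf10 from -0.02 (without untreated tumour 3) to 0.17 and Srsf2 from -0.02 (without vorinostat tumour 2) to 0.23. Alternatives for the dense windows, and those without untreated tumour 1 or 3 for the split, were chosen after seeing the data. The cause of these changes was not tested, except that fewer libraries make a split easier to meet by construction. No paired analysis was possible because the replicate numbers follow sample order and pair nothing. Untreated tumour 3 had the smallest effective library, which limits its precision for the genes with the fewest reads.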
